A study of Homo sapiens with 8 samples.

Results

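The genes described here encode the neurofilaments and related parts of the neurite cytoskeleton in BE2C cells, a human neuroblastoma line with amplified MYCN. They were taken by symbol from the platform annotation of the array, as NEFL, NEFM, NEFH, PRPH, INA, GAP43, STMN2, MAPT, TUBB3 and DCX. Of these 10 genes, 9 had a probe set with their symbol, 1 probe set each, among the 17687 genes of the table, and TUBB3 was not analysed here. The study treated BE2C cells with GSK-J4 or depleted KDM6B to ask which transcripts follow loss of this histone demethylase. Total RNA was hybridised to 8 Clariom S arrays in 4 groups of 2. GSK-J4 is a cell-permeable compound that is converted in cells to an inhibitor of the KDM6 demethylases, and it was given for 24 h with 0.1% DMSO for 24 h as its control. KDM6B siRNA was transfected at 30 nM for 48 h, with a control siRNA at 30 nM for 48 h beside it. The labels state the GSK-J4 dose as 2.5 mM, whereas the study worked in micromolar doses, so the unit of that dose is uncertain. All 4 groups come from 1 cell line, and the labels do not say which of the study's KDM6B siRNAs each array received. The replicates are called biological with no mention of separate cultures, so the p-values measure the spread between these arrays only.

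Neurofilaments are the intermediate filaments of neurons and set the calibre of axons. They are copolymers of a light, a medium and a heavy subunit (NEFL, NEFM and NEFH), with alpha-internexin (INA) in central neurons and peripherin (PRPH) in peripheral neurons. Growing neurites also carry GAP43 at the growth cone membrane, stathmin-2 (STMN2), which binds free tubulin, and the microtubule-associated proteins tau (MAPT) and doublecortin (DCX). Neuroblastoma arises from the sympathoadrenal lineage, and several of these proteins are used as signs of neuronal differentiation in its cell lines.

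All 9 measured genes lay above the background of all 8 arrays, taken as the 95th percentile of 612 negative control probe sets (4.62 to 4.89 on the log2 scale of the arrays). The 2 arrays of the DMSO, GSK-J4 and control siRNA groups had only 3 to 8 genes more than 1 log2 unit apart, whereas the 2 KDM6B siRNA arrays had 906 (5.12% of genes). KDM6B itself, the target of the siRNA, was at 7.22 and 5.76 in KDM6B siRNA cells, against 8.27 and 8.35 in control siRNA cells. Both KDM6B siRNA arrays were below both controls, and the group difference of -1.82 did not pass the test (adjusted p = 0.0878 by limma over all genes). It was at 9.41 and 9.18 in GSK-J4 cells and at 8.17 and 8.47 in DMSO cells (adjusted p = 0.25). Of the adrenergic neuroblastoma markers, 11 of 12 were measured and all 11 were above background on every array.

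Under GSK-J4, NEFH fell and PRPH rose, while the other 7 genes did not pass the test. A gene was called at a Benjamini-Hochberg adjusted p below 0.05 from a limma fit of all 8 arrays, adjusted over the 17687 genes. By this rule 1 of 9 genes rose, with 2.29% of all genes called higher, and 1 of 9 fell, with 1.41% of all genes called lower. The median difference over the 9 genes was -0.07 on the log2 scale, against -0.02 over all genes. The 2 GSK-J4 arrays did not overlap the 2 DMSO arrays for 8 of the 9 genes, 3 higher and 5 lower, but groups of 2 were apart in this way for 54.1% of all genes.

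**Figure D1:**
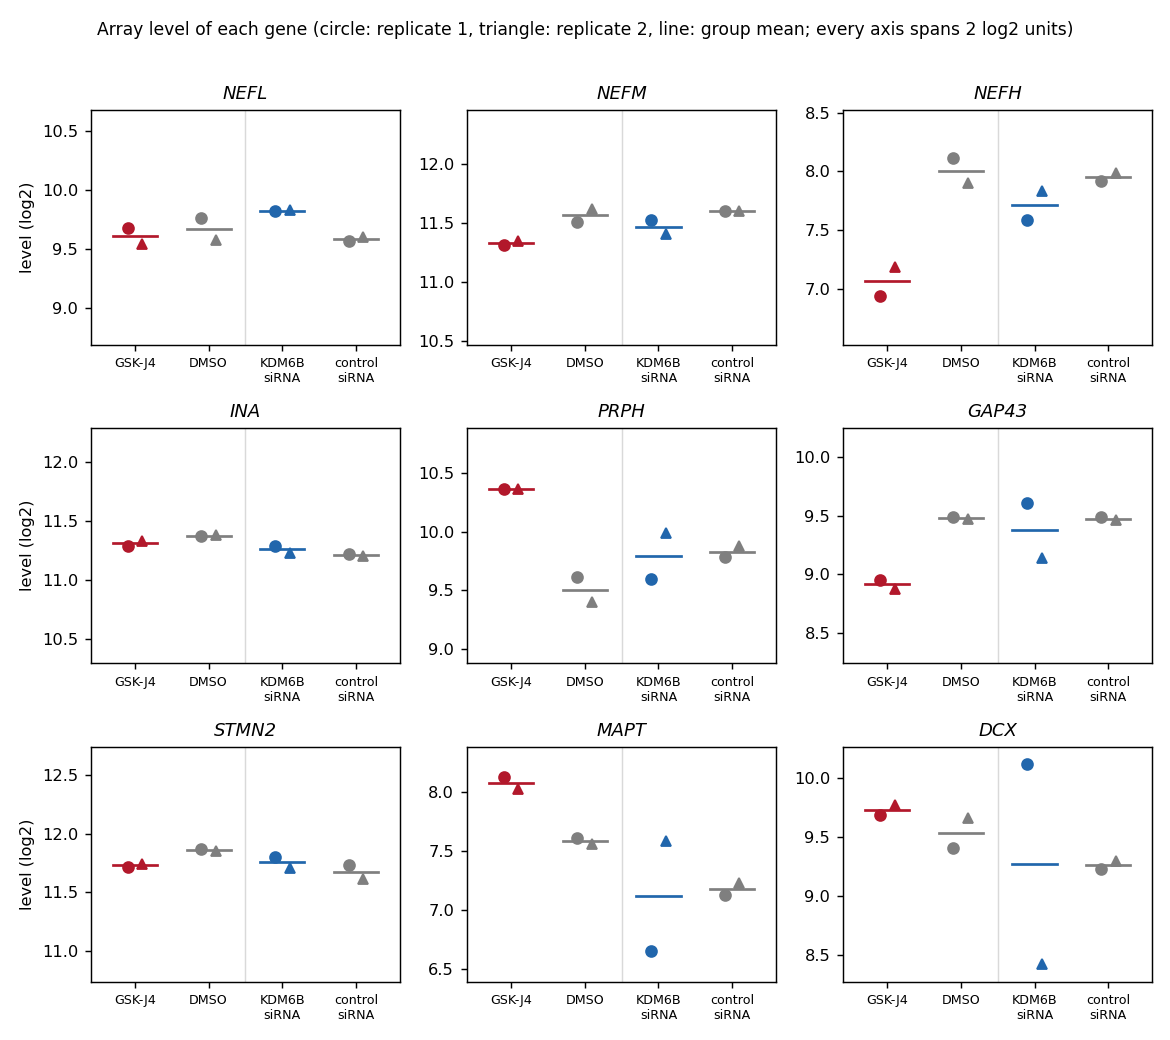
Level of each of the 9 measured genes on the 8 arrays (y axis, log2, each panel spanning the same number of log2 units), with GSK-J4, DMSO, KDM6B siRNA and control siRNA along the x axis, circles for replicate 1, triangles for replicate 2 and lines for group means. NEFH at 6.94 and 7.19 and PRPH at 10.36 on both arrays stand apart under GSK-J4, and DCX at 10.12 and 8.42 is split between the KDM6B siRNA arrays.

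NEFH encodes the heavy neurofilament subunit, whose long phosphorylated tail projects from the filament. Its level was 6.94 and 7.19 in GSK-J4 cells, against 8.11 and 7.90 in DMSO cells. Both GSK-J4 arrays lay below every other array of the series. The mean of 7.07 ± 0.18 in GSK-J4 cells and 8.002 ± 0.15 in DMSO cells (SD, n = 2 each) gave a log2 difference of -0.93 with an SE of 0.15 and a 95% interval of -1.28 to -0.59 (adjusted p = 0.0183 by limma). This is a 1.91-fold lower level, and 93 of the 17687 genes had a larger fall. The light and medium subunits did not pass the test. NEFL, which forms the core of the filament, had levels of 9.68 and 9.54 in GSK-J4 cells and 9.76 and 9.58 in DMSO cells, which overlap (log2 difference -0.06, 95% interval -0.35 to 0.22). NEFM, the medium subunit, had levels of 11.31 and 11.35 in GSK-J4 cells and 11.51 and 11.62 in DMSO cells (log2 difference -0.24, 95% interval -0.51 to 0.04, adjusted p = 0.368 by limma). The intervals of NEFL and NEFM lay wholly above that of NEFH. NEFM and NEFL are next to each other in the RefSeq annotation, with 0 protein-coding genes between them.

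PRPH encodes peripherin, the intermediate filament of sympathetic and sensory neurons. Its level was 10.36 and 10.36 in GSK-J4 cells, against 9.61 and 9.40 in DMSO cells. Both GSK-J4 arrays were above all 6 other arrays. The log2 difference was 0.85 with an SE of 0.16 and a 95% interval of 0.49 to 1.21, a 1.80-fold higher level (adjusted p = 0.0275 by limma), and 293 genes had a larger rise. INA, the fourth neuronal filament protein, had levels of 11.29 and 11.33 in GSK-J4 cells and 11.37 and 11.38 in DMSO cells. These groups did not overlap, yet the difference of -0.07 had an interval that spans 0 (-0.33 to 0.19, adjusted p = 0.821 by limma).

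The call for NEFH and the call for PRPH depended on which arrays entered the fit. Both were kept when either KDM6B siRNA array was left out, with adjusted p = 0.00245 for NEFH and 0.00216 for PRPH by limma. Both were lost when any 1 of the DMSO, GSK-J4 or control siRNA arrays was left out, with adjusted p between 0.0601 and 0.164 for NEFH and between 0.0772 and 0.20 for PRPH by limma, although the differences stayed between -1.06 and -0.81 for NEFH and between 0.75 and 0.96 for PRPH.

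Sequence upstream of the start is shown for PRPH, which rose, for INA, the filament gene with the narrowest range over the arrays, and for GAP43, which had the next lowest difference after NEFH. Each run is the 250 bases before the annotated start, 5′ to 3′ on the plus strand, from RefSeq on GRCh38.p14, at chr12:49294897-49295146 for PRPH, chr10:103276888-103277137 for INA and chr3:115623260-115623509 for GAP43. Capitals mark a TATA box (TATAAA), a GC box (GGGCGG) or a CCAAT box (CCAAT), each searched on both strands, so that CCGCCC and ATTGG are the opposite strand of the GC and CCAAT boxes.
PRPH: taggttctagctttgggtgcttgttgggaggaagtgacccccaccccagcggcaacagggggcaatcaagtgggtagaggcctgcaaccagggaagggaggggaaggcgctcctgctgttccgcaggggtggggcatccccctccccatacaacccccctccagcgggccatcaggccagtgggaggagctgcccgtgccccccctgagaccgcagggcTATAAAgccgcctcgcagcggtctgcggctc
INA: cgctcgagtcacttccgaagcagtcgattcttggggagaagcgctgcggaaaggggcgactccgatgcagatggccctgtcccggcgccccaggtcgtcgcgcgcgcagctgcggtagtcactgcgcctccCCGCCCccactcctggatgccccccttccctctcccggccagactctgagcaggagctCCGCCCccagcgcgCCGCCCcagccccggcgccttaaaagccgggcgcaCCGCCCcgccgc
GAP43: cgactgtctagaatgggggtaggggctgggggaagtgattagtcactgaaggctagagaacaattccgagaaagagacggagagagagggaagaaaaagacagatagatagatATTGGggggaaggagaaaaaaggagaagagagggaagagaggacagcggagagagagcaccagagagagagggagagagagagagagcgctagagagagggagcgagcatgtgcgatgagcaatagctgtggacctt
The PRPH window held 1 TATA box, which starts 31 bases before the gene, with 0 GC boxes and 0 CCAAT boxes. A TATA box at any position and on either strand was found in 10.7% of 35116 RefSeq windows of this length. The INA window held 0 TATA boxes and 4 GC boxes, where 42.6% of windows had at least 1 GC box. The GAP43 window held 0 TATA boxes, 0 GC boxes and 1 CCAAT box, which lay within a long purine-rich stretch. At least 1 CCAAT box was found in 32% of windows. The canonical E box (CACGTG), which MYCN binds, was in 6.34% of windows and in 0 of these 3. Of the 10 genes, 5 had an entry in the promoter table used, and NEFH and MAPT are among those without one.

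**Figure D2:**
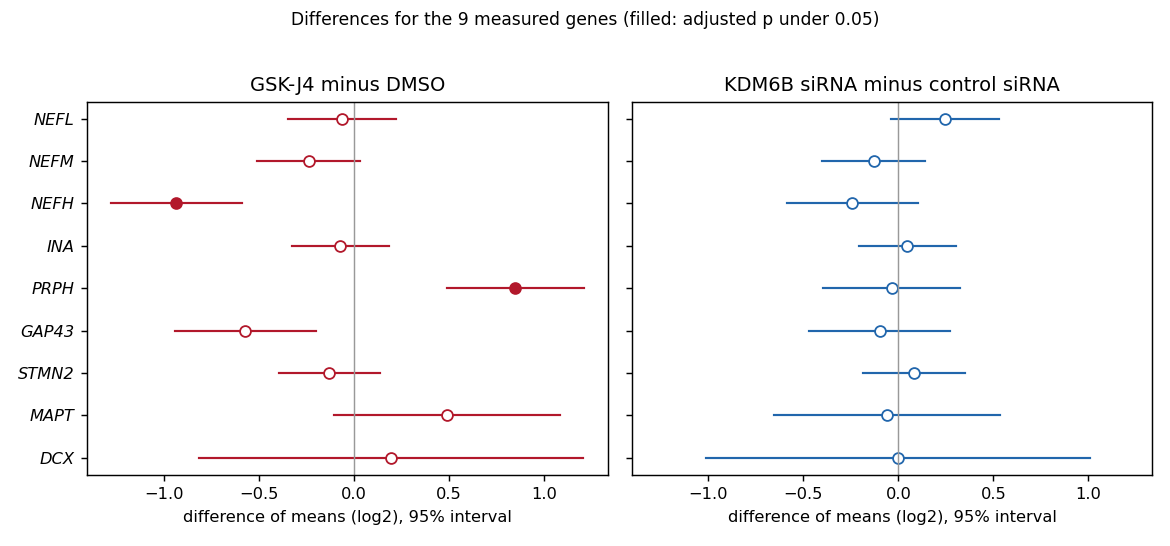
Log2 difference of group means (x axis) with its 95% interval for the 9 measured genes (y axis), GSK-J4 minus DMSO on the left and KDM6B siRNA minus control siRNA on the right, filled where the adjusted p was below 0.05. NEFH at -0.93 and PRPH at 0.85 are the filled points, both under GSK-J4.

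The genes of the growth cone and of microtubule binding did not pass the test under GSK-J4. GAP43, a membrane phosphoprotein of growth cones, had levels of 8.95 and 8.88 in GSK-J4 cells, against 9.49 and 9.47 in DMSO cells. The groups were well apart and each pair was close, and the log2 difference was -0.57 (95% interval -0.94 to -0.20, adjusted p = 0.11 by limma). MAPT, which stabilises axonal microtubules, had levels of 8.13 and 8.03 in GSK-J4 cells and 7.61 and 7.56 in DMSO cells. Its log2 difference was 0.49 (95% interval -0.10 to 1.09, adjusted p = 0.398 by limma), and both GSK-J4 arrays were above all 6 others. In the fits with either 1 of the KDM6B siRNA arrays left out, both GAP43 (adjusted p = 0.00655) and MAPT (adjusted p = 0.015 by limma) were called with the same differences, so that 2 of 9 genes rose and 2 of 9 fell, with 7.46% of all genes called higher and 6.88% lower in those fits. In the fit of the GSK-J4 and DMSO arrays alone the same 4 genes were called, with adjusted p = 0.0192 for GAP43 and 0.0322 for MAPT by limma, and 5.87% of all genes were called higher and 4.92% lower.

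STMN2, which sequesters tubulin in regrowing axons, had levels of 11.72 and 11.74 in GSK-J4 cells and 11.87 and 11.85 in DMSO cells, a log2 difference of -0.13 (95% interval -0.40 to 0.14). DCX, which bundles the microtubules of migrating neurons, had levels of 9.69 and 9.77 in GSK-J4 cells and 9.41 and 9.66 in DMSO cells. Its log2 difference of 0.20 had a 95% interval of -0.81 to 1.21, the widest of the 9 genes, and this interval uses the spread of all 8 arrays, the KDM6B siRNA pair included.

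After KDM6B siRNA none of the 9 genes was called by limma, and 0 had an unadjusted p below 0.05, as 14.6% of all genes did. In this comparison 0.113% of all genes were called higher and 0.492% lower. The median difference of the 9 genes was -0.04, against 0.01 over all genes, and the groups did not overlap for 4 of 9 genes, with 41.9% of all genes apart in this way. NEFL had levels of 9.82 and 9.83 in KDM6B siRNA cells, against 9.57 and 9.60 in control siRNA cells (log2 difference 0.24, 95% interval -0.04 to 0.53, adjusted p = 0.419 by limma). NEFH had levels of 7.59 and 7.83 in KDM6B siRNA cells and 7.92 and 7.99 in control siRNA cells (log2 difference -0.24, 95% interval -0.59 to 0.10). Both pairs were apart, NEFL higher and NEFH lower in KDM6B siRNA cells. NEFM had levels of 11.53 and 11.41 in KDM6B siRNA cells and 11.60 on both control siRNA arrays (log2 difference -0.13). INA had levels of 11.29 and 11.23 in KDM6B siRNA cells and 11.22 and 11.20 in control siRNA cells (log2 difference 0.05). For STMN2 the levels overlapped, at 11.80 and 11.71 in KDM6B siRNA cells and 11.73 and 11.61 in control siRNA cells (log2 difference 0.08).

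The other 4 genes lay on opposite sides of the control siRNA mean in the KDM6B siRNA arrays. DCX was at 10.12 in replicate 1 and 8.42 in replicate 2, against 9.23 and 9.30 in control siRNA cells. It was thus 0.85 above the control mean on 1 array and 0.85 below it on the other, and the mean difference was 0.00 (95% interval -1.01 to 1.01). Only 130 genes, 0.735% of all, had a larger gap between these 2 arrays. MAPT was at 6.65 in replicate 1 and 7.59 in replicate 2, against 7.13 and 7.23 in control siRNA cells, which is 0.53 below and 0.41 above the control mean. PRPH was at 9.60 and 9.99 in KDM6B siRNA cells and 9.78 and 9.88 in control siRNA cells, and GAP43 at 9.61 and 9.14 in KDM6B siRNA cells and 9.49 and 9.46 in control siRNA cells.

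**Figure D3:**
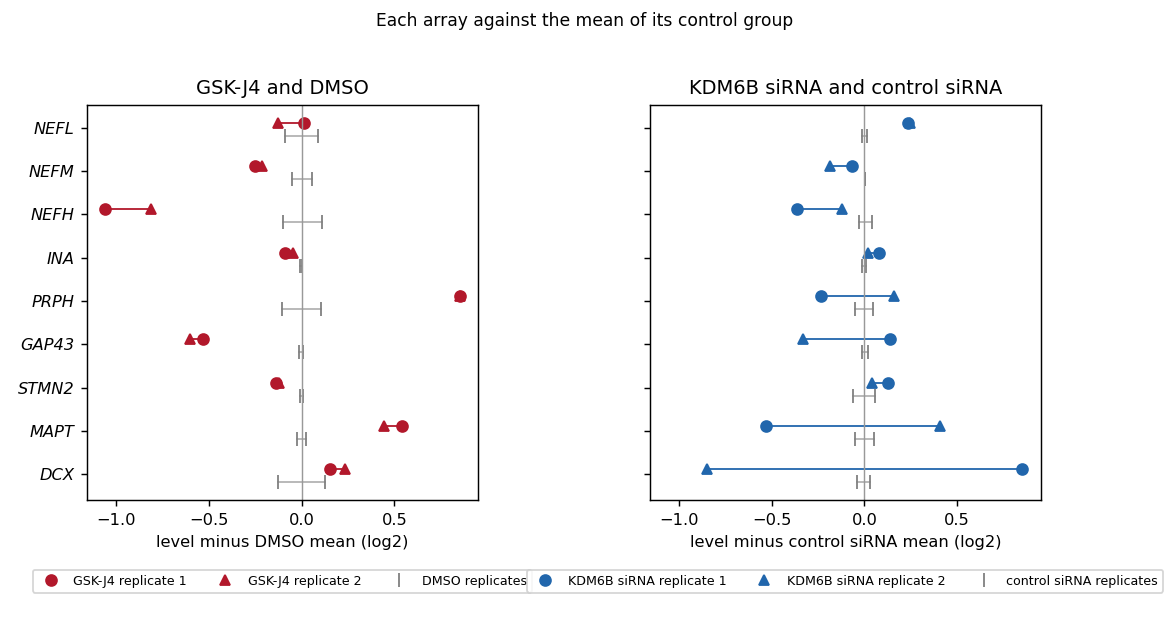
Level of each GSK-J4 array minus the DMSO mean (left) and of each KDM6B siRNA array minus the control siRNA mean (right) on a log2 x axis for the 9 genes, with the control arrays as ticks. The GSK-J4 arrays fall close together, within 0.25 of each other, whereas DCX and MAPT lie on both sides of the control siRNA mean after KDM6B siRNA.

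Leaving out 1 KDM6B siRNA array changed what was called. Without replicate 2, DCX was higher by 0.85 (adjusted p = 0.013) and MAPT lower, with a difference of -0.53 (adjusted p = 0.0473 by limma). Without replicate 1, DCX was lower, with a difference of -0.85 (adjusted p = 0.00393 by limma), and MAPT was not called at 0.41 (adjusted p = 0.0529 by limma). Without replicate 2, 1.62% of all genes were called higher and 3.84% lower, and without replicate 1, 9.58% higher and 10.3% lower. Each of these fits rests on 1 KDM6B siRNA array, whose spread was taken from the groups that kept a pair. KDM6B was 1.09 below the control mean in replicate 1 and 2.56 below it in replicate 2, and the adrenergic markers had a mean level of 9.63 and 8.81 on the 2 arrays, against 10.01 and 10.04 in control siRNA cells. Their part in the levels of DCX and MAPT was not tested.

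The effect of GSK-J4 and that of KDM6B siRNA were set against each other in 1 contrast. None of the 9 genes passed the test of this difference by limma, where 0.922% of all genes were called. At an unadjusted p below 0.05 there were 2 of 9, with 12.1% of all genes. The compound and the siRNA differ in duration and in what they act on, so the contrast compares these treatments as given. PRPH had the lowest adjusted p, with a GSK-J4 effect 0.89 above that of KDM6B siRNA (95% interval 0.38 to 1.40, adjusted p = 0.144 by limma). For NEFH the GSK-J4 effect was lower by a difference of -0.69 (95% interval -1.18 to -0.20, adjusted p = 0.231 by limma). The PRPH difference passed without KDM6B siRNA replicate 1 (0.69, adjusted p = 0.034) and without replicate 2 (1.08, adjusted p = 0.0103 by limma), whereas that of NEFH passed only without replicate 1 (-0.81, adjusted p = 0.0303 by limma). Without replicate 1, DCX was also called (1.05, adjusted p = 0.00746 by limma), and without replicate 2, MAPT (1.02, adjusted p = 0.00932) and GAP43 (-0.71, adjusted p = 0.0337 by limma) were. This made 3 of 9 genes called in each of these fits, with 14.1% of all genes called without replicate 1 and 6.16% without replicate 2.

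The control groups differ in agent, transfection and hours together, so their levels only describe the baselines. Of the 9 genes, 0 were called between control siRNA and DMSO by limma where 0.0113% of all genes were called, and 0 had an unadjusted p below 0.05, as 4.29% of all genes did. MAPT, at 7.13 and 7.23 in control siRNA cells against 7.61 and 7.56 in DMSO cells, had the lowest difference at -0.41 (95% interval -1.001 to 0.19). PRPH had the highest, at 0.33 (95% interval -0.03 to 0.69), so its DMSO baseline was below its control siRNA baseline. In order of group means, NEFH stood at 7.07 in GSK-J4, 7.71 in KDM6B siRNA, 7.95 in control siRNA and 8.002 in DMSO cells, where control siRNA and DMSO overlap. PRPH stood at 9.51 in DMSO, 9.80 in KDM6B siRNA, 9.83 in control siRNA and 10.36 in GSK-J4 cells, where KDM6B siRNA overlaps both DMSO and control siRNA.

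Of the 12412 genes above background on all 8 arrays, the 3 most correlated with NEFH over the 8 arrays were SNRPD3 (Pearson r = 0.989), a core protein of the spliceosome, ANXA6 (r = 0.988), a calcium-dependent membrane-binding annexin, and AK1 (r = 0.985), an adenylate kinase. For PRPH they were SPPL3 (r = 0.987), an intramembrane protease, MADD (r = 0.978), a Rab3 exchange factor, and SLC48A1 (r = 0.977), a haem transporter. These values describe the same 8 arrays, and the GSK-J4 arrays are at the end of the range of NEFH and PRPH. The genes were chosen on these same arrays, so their GSK-J4 differences are not an independent result. Under GSK-J4, 2.29% of all genes were called higher and 1.41% lower. SNRPD3 and SPPL3 did not pass under GSK-J4, with differences of -0.32 (adjusted p = 0.209) and 0.49 (adjusted p = 0.0902 by limma). SLC48A1 rose by 1.37 under GSK-J4 (adjusted p = 0.0209), MADD rose by 0.60 (adjusted p = 0.0432), ANXA6 fell by 0.77 (adjusted p = 0.0151) and AK1 fell by 0.70 (adjusted p = 0.0209 by limma).

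The other tubulins form the microtubules to which tau and doublecortin bind. Under GSK-J4, 1 of 17 measured tubulin genes rose and 3 of 17 fell, with 2.29% of all genes called higher and 1.41% lower. Of the 17, 14 had a negative difference, with a median of -0.30 against -0.02 over all genes. TUBE1, the epsilon tubulin of centrioles, was at 8.78 and 8.92 in GSK-J4 cells, against 7.72 and 7.74 in DMSO cells (log2 difference 1.12, adjusted p = 0.0111 by limma). TUBD1, the delta tubulin of centrioles, was at 6.54 and 6.52 in GSK-J4 cells, against 7.36 and 7.50 in DMSO cells (-0.90, adjusted p = 0.0405 by limma). TUBB8, a beta tubulin, was at 7.43 and 7.64 in GSK-J4 cells, against 8.54 and 8.48 in DMSO cells (-0.97, adjusted p = 0.0405 by limma). The other gene that fell was TUBB4B, a beta tubulin named after its values were seen, at 10.65 and 10.63 in GSK-J4 cells, against 11.57 and 11.49 in DMSO cells (-0.89, adjusted p = 0.0485 by limma). Tubulin genes are alike in sequence, and cross-hybridisation between their probe sets was not tested. After KDM6B siRNA 0 of 17 were called by limma, while 13 of 17 had an unadjusted p below 0.05, against 14.6% of all genes, and 16 of 17 had a negative difference, with a median of -0.43 against 0.01 over all genes. Without KDM6B siRNA replicate 1, 10 of 17 fell in that comparison, with 10.3% of all genes called lower. Without replicate 2, 1 of 17 fell, with 3.84% of all genes called lower. In the GSK-J4 comparison 7 of 17 fell when either KDM6B siRNA array was left out, with 6.88% of all genes called lower.

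**Figure D4:**
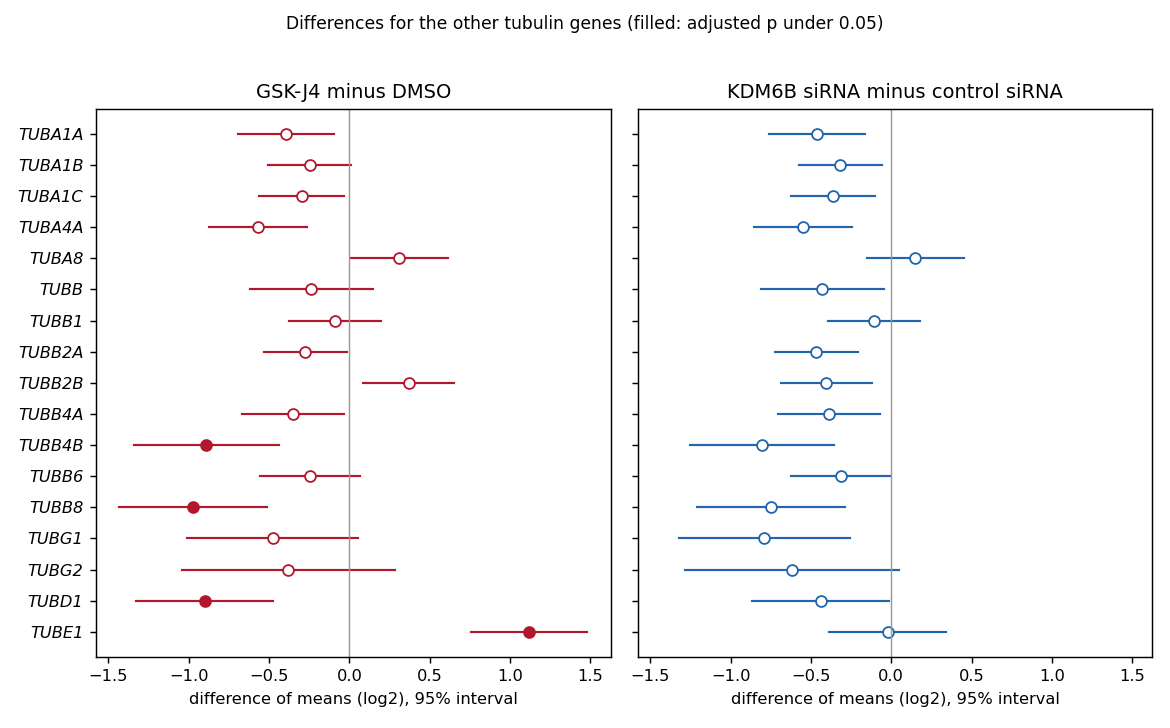
Log2 difference of group means (x axis) with its 95% interval for the 17 other tubulin genes (y axis), GSK-J4 minus DMSO on the left and KDM6B siRNA minus control siRNA on the right, filled where the adjusted p was below 0.05. Under GSK-J4, 14 of 17 points lie below 0 and TUBE1 at 1.12 is the highest, and after KDM6B siRNA 16 of 17 lie below 0 with 0 filled.

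Under GSK-J4, where 2.29% of all genes were called higher and 1.41% lower, 1 of 23 other microtubule regulators of neurites rose and 0 fell. It was MAP4, a widely expressed microtubule-binding protein, at 10.17 and 10.19 in GSK-J4 cells, against 9.55 and 9.63 in DMSO cells (0.59, adjusted p = 0.0357 by limma). Of 16 axonal transport motor genes 1 rose, DYNC1H1, the heavy chain of cytoplasmic dynein, at 9.17 and 9.28 in GSK-J4 cells, against 8.52 and 8.64 in DMSO cells (0.65, adjusted p = 0.0281 by limma). Of 13 measured genes for kinases and turnover of tau and neurofilaments 1 rose, TTBK2, a kinase that phosphorylates tau, at 7.20 and 7.34 in GSK-J4 cells, against 6.58 and 6.49 in DMSO cells (0.74, adjusted p = 0.0447 by limma).

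Of 17 measured regulators of the neuronal programme 1 fell under GSK-J4, with 1.41% of all genes called lower. This gene was TARDBP, an RNA-binding protein that in human neurons keeps a cryptic exon out of STMN2 transcripts. It was at 9.30 and 9.33 in GSK-J4 cells, against 9.87 and 9.95 in DMSO cells (-0.60, adjusted p = 0.0295 by limma), and the STMN2 difference of -0.13 did not pass. Of 10 other intermediate filament genes and 16 growth cone and axonal membrane genes 0 were called by limma under GSK-J4, with 4 and 2 of them at an unadjusted p below 0.05, as 17% of all genes were. VIM, which like PRPH encodes a type III filament and was chosen after its values were seen, was at 9.53 and 9.55 in GSK-J4 cells and 8.89 and 8.26 in DMSO cells (0.97, adjusted p = 0.0769 by limma). The other type III genes of that list did not share this rise. DES had a difference of 0.20 (adjusted p = 0.719) and GFAP of -0.40 (adjusted p = 0.166 by limma). The lowest difference of the list was that of LMNB1, at -0.81 (adjusted p = 0.0887 by limma). After KDM6B siRNA, 0 genes of these 7 lists, the tubulins included, were called by limma in the fit of all 8 arrays, with 1 to 13 genes of each list at an unadjusted p below 0.05 and 14.6% of all genes.

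The counts of these lists moved when a KDM6B siRNA array was left out. Under GSK-J4, with either 1 of these arrays left out, 5 of 23 microtubule regulators rose and 2 fell, 2 of 16 motor genes rose, 2 of 13 kinase and turnover genes rose and 1 fell, and 2 of 17 neuronal regulators rose and 4 fell. Among the other intermediate filaments 1 of 10 rose and 2 fell, and among the growth cone genes 0 of 16 rose and 2 fell, beside 7.46% of all genes higher and 6.88% lower. After KDM6B siRNA, each such fit rests on 1 KDM6B siRNA array, so only median differences are given here. They were 0.238 without replicate 1 and -0.241 without replicate 2 for the motor genes. In the same order they were 0.214 and -0.021 for the kinase and turnover genes. They were 0.165 and -0.128 for the other intermediate filaments and -0.007 and 0.009 for the microtubule regulators. For the neuronal regulators they were -0.105 and -0.092, and for the growth cone genes -0.024 and 0.027. Over all genes the medians were 0.02 and 0.009.

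The calls of TUBB8, TUBD1, MAP4, DYNC1H1, TTBK2 and TARDBP were kept with either 1 of the KDM6B siRNA arrays left out and lost when any 1 of the DMSO, GSK-J4 or control siRNA arrays was left out. That of TUBE1 was lost when any 1 of the DMSO or GSK-J4 arrays was left out.

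The markers of other cell types were set beside these results. Under GSK-J4, 0 of 11 adrenergic, 0 of 9 mesenchymal and fibroblast and 0 of 5 Schwann cell markers were called by limma, with 2, 2 and 0 at an unadjusted p below 0.05 against 17% of all genes. Of 5 blood cell markers CD14 fell by 0.66 (adjusted p = 0.0335 by limma), with 1.41% of all genes called lower. CD14 was at 5.61 and 5.62 in GSK-J4 cells, against 6.24 and 6.32 in DMSO cells. It was at 5.71 and 5.64 in control siRNA cells and 5.56 and 5.81 in KDM6B siRNA cells. Both DMSO arrays thus lay above every other array. The counts of the adrenergic and of the mesenchymal and fibroblast markers changed with either 1 of the KDM6B siRNA arrays left out, while their median differences stayed at 0.005 and -0.056. Their mean levels were 10.08 to 10.10 in GSK-J4 cells and 10.11 to 10.15 in DMSO cells for the adrenergic markers, and 6.27 to 6.43 in GSK-J4 cells and 6.35 to 6.36 in DMSO cells for the mesenchymal and fibroblast markers. After KDM6B siRNA all 11 adrenergic markers had a negative difference, with a median of -0.70, and 1 of 11 fell, with 0.492% of all genes called lower. Without replicate 1 the median was -1.13. Without replicate 2 the median was -0.31, and 1 of 11 had a positive difference. Each of these fits rests on 1 KDM6B siRNA array. The gene called with all 8 arrays was TH, tyrosine hydroxylase, at 7.30 and 7.11 in KDM6B siRNA cells, against 8.18 and 8.31 in control siRNA cells (-1.04, adjusted p = 0.0196 by limma). The calls of CD14 and TH were lost when any 1 of the DMSO, GSK-J4 or control siRNA arrays was left out. In every group 2 of 5 blood cell markers (CD14 and HBA1) and 2 of 5 Schwann cell markers (SOX10 and S100B) were above background on both arrays. The others, PTPRC, CD3E and HBB of blood cells and ERBB3, CDH19 and FOXD3 of Schwann cells, were below or close to the negative control percentile. Because the arrays measure bulk RNA, fewer cells of a type and less RNA per cell cannot be told apart.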

How the data were processed

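Total RNA from 8 BE2C samples was hybridised to Clariom S arrays. The values analysed are log2 levels of probe sets, computed by the authors for each array and deposited as 1 table. The submitters' processing notes name GCOS, and how background was corrected, arrays normalised and probes summarised is not given in the sources used here. Of 24351 probe sets, 17709 had 1 gene symbol in the platform annotation, 3739 transcript probe sets had none, and for the 20 genes with several probe sets the one with the highest mean was kept. A gene was above background where it exceeded the 95th percentile of the negative controls of that array.

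The tests were two-sided moderated comparisons in limma 3.58.1 under R 4.3.3 (functions lmFit and eBayes), run without further scaling, with 4 group coefficients, 4 residual and 4.18 prior degrees of freedom, and Benjamini-Hochberg adjustment over 17687 genes at 0.05. The fit was tested on simulated data that had the same spread in every group, so the wider spread of the KDM6B siRNA pair was not tested. The genes and lists were chosen with earlier results of these data known. Named were all the neurite genes, KDM6B, up to 3 called genes per list and comparison, and the 3 genes most correlated with each called neurite gene. TUBB4B, VIM, DES, GFAP, LMNB1 and the uncalled blood and Schwann cell markers were named outside this rule, with their values known. Alternatives were quantile normalisation, median centring, the arrays of the comparison alone, trended and robust eBayes, array weights, a filter on dim genes, means over probe sets, a replicate block, the methods' t-test and each array left out. The number of arrays limits the precision.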

Additional observations from a re-analysis of the deposited data

Results flagged for a closer look

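Of the neurite genes, KDM6B and the other lists, only TH, tyrosine hydroxylase, was called for the difference between the GSK-J4 and KDM6B siRNA effects. In that test 0.922% of all genes were called. Of the 11 adrenergic markers, TH among them, 10 had a positive difference, with a median of 0.59 against -0.02 over all genes. At an unadjusted p below 0.05 by limma there were 5 of 11, against 12.1% of all genes. TH was at 9.16 and 9.14 in GSK-J4 cells, against 9.19 and 9.11 in DMSO cells (difference 0.005, adjusted p = 0.991 by limma). It fell after KDM6B siRNA, to 7.30 and 7.11 against 8.18 and 8.31 in control siRNA cells (-1.04, adjusted p = 0.0196 by limma). The control siRNA levels of TH were themselves below its DMSO levels. The GSK-J4 effect was higher by 1.05 on the log2 scale with an SE of 0.18 (adjusted p = 0.0419 by limma over all genes). With 1 KDM6B siRNA array left out this difference was 0.95 or 1.14, in fits that rest on 1 KDM6B siRNA array. It was not called when any 1 of the DMSO, GSK-J4 or control siRNA arrays was left out, with adjusted p between 0.167 and 0.235 by limma and differences between 0.98 and 1.11.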

How the results depend on the processing

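Quantile normalisation, median centring, trended and robust eBayes, the filter on dim genes and means over probe sets changed no call among the 9 neurite genes in any comparison. NEFH and PRPH under GSK-J4 kept their direction in all 17 alternatives and their call in 8 of 9 that used every array of the comparison. The exception was the methods' t-test, a two-sided equal-variance test on 4 arrays, which after Benjamini-Hochberg adjustment called 0 genes higher and 0 lower among the 9, and 0 genes of all in each of the 3 pairwise comparisons. At its unadjusted p below 0.05 it had 3324 genes for GSK-J4 against DMSO, 1257 for KDM6B siRNA against control siRNA and 1342 for control siRNA against DMSO. On the 4 arrays of the comparison alone, 2 of the 9 genes rose and 2 fell under GSK-J4, and array weights, which gave each KDM6B siRNA array a weight of 0.316, called 2 lower. All genes called were 654 for GSK-J4 against DMSO in the fit of 8 arrays, 1908 on its 4 arrays alone and 2116 with array weights. They were 107 for KDM6B siRNA against control siRNA, 0 on its 4 arrays and 27 with weights, and 2 for control siRNA against DMSO, 27 on its 4 arrays and 37 with weights.

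The replicate numbers are shared by the groups but nothing ties same-numbered arrays to 1 culture or day, and the deviations of same-numbered arrays correlated at 0.088 for GSK-J4 with DMSO and -0.036 for KDM6B siRNA with control siRNA. With the replicate block NEFH (adjusted p = 0.0311) and PRPH (adjusted p = 0.0482 by limma) were still called and no call among the 9 genes changed, whereas TUBB8, TUBD1, TTBK2, CD14, TARDBP and MAP4 under GSK-J4 and TH for the difference of effects were no longer called. The block lowered all calls to 439 for GSK-J4, against 654 without it, and to 35 for KDM6B siRNA, against 107. For the difference of effects it lowered them to 81, against 163.

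With each array left out in turn, 0 to 2 of the 9 genes rose and 0 to 2 fell under GSK-J4, 0 to 1 rose and 0 to 1 fell after KDM6B siRNA, and 0 to 2 were higher and 0 to 1 lower for the difference of effects. All genes called ranged over 55 to 2537 for GSK-J4, 0 to 3518 for KDM6B siRNA, 17 to 2486 for the difference and 0 to 64 for control siRNA against DMSO. Small differences changed sign. PRPH after KDM6B siRNA was 0.034 with quantile normalisation, and GAP43 in control siRNA against DMSO was 0.011 with median centring. Over the arrays left out, NEFL under GSK-J4 ranged from -0.15 to 0.026, and after KDM6B siRNA PRPH ranged from -0.23 to 0.16, MAPT from -0.53 to 0.41, GAP43 from -0.33 to 0.14 and DCX from -0.85 to 0.85. DCX in the difference of effects ranged from -0.65 to 1.05, and in control siRNA against DMSO NEFM ranged from -0.02 to 0.087 and NEFH from -0.155 to 0.056. The cause of these changes was not tested. The list counts without a KDM6B siRNA array were chosen after seeing the data.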
